A study of Homo sapiens with 6 samples.

Results

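The human microRNAs numbered miR-6720 to miR-6895 came from a range of names given mostly to mirtrons, and the 5p arms of that range were profiled here in Panc-1, a permanent cell line grown from a human pancreatic ductal adenocarcinoma. A probe counted as a member when its printed name was a number of this range followed by 5p, with no letter after the number and no measured value in the choice. This rule found 168 of the 2565 miRNA probes on the array. The 166 probes for the 3p arms of the same numbers served as the nearest comparison.

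Of the 6 arrays, 3 held RNA of untreated control cells and 3 held RNA of cells kept with TGF-β for 72 h at 10 ng/mL, and the question was which miRNAs change with TGF-β, a secreted cytokine that drives epithelial-mesenchymal transition. Panc-1 is 1 cell line with no normal or second tumour line beside it, and the labels do not say whether the 3 samples of a group were separate cultures, so the p-values measure the spread between these samples, which may be technical. The control arrays shared 1 slide and the TGF-β arrays a second one, so slide and treatment cannot be told apart. Total RNA was labelled with Cy5 and read in 1 colour, and each miRNA had a single spot. Of the markers of the labelled cells, miR-21-5p had the level 14.3 and miR-31-5p 11.5 on the log2 scale defined below. Of the 6 epithelial markers, miR-200a-3p and miR-200b-3p were detected on all 6 arrays at mean levels of 2.52 and 2.92, miR-429 on 3, miR-200c-3p and miR-205-5p on 1 each and miR-141-3p on 0. Among the muscle miRNAs, miR-1-3p had 8.59 to 8.83 in the control group against 7.05 to 7.31 in the TGF-β group, miR-133a-3p had 6.45 to 6.98 against 5.16 to 5.38, and miR-206 had a mean of 2.24. The endothelial miR-126-3p had 7.06 to 7.11 against 6.72 to 6.84, a difference of -0.32 with an adjusted p of 0.0411 by limma. With the local background in place of the blank spots it had -0.095 and the call was lost, as 0 of all 1457 probes tested were called there. The part of these differences in the results below was not tested.

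A mirtron is a short intron that folds into a hairpin after splicing and is cut by Dicer without the Drosha step that most miRNA precursors need. Its ends are the splice sites of the intron, so its 5p arm tends to begin near the 5′ splice site and be rich in G, and its 3p arm tends to end at the AG of the 3′ splice site and to be rich in pyrimidines. Many such miRNAs were catalogued from deep sequencing and have no assigned function, and for the members described here no function is given for that reason. A miRNA finds its targets mainly through the seed, bases 2 to 8 from its 5′ end.

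The mature sequences of the 8 members with the highest signals are shown because the members of high signal are described one by one, with miR-6822-5p far above the other 7. They are from RefSeq (GRCh38.p14), written 5′ to 3′, with the seed in capitals.
hsa-miR-6822-5p: cAGGGAACcaguuggggcuu
hsa-miR-6777-5p: aCGGGGAGucaggcaguggugga
hsa-miR-6743-5p: aAGGGGCAgggacggguggccc
hsa-miR-6826-5p: uCAAUAGGaaagaggugggaccu
hsa-miR-6768-5p: cACACAGGaaaagcggggcccug
hsa-miR-6786-5p: gCGGUGGGgccggaggggcgu
hsa-miR-6727-5p: cUCGGGGCaggcggcugggagcg
hsa-miR-6741-5p: gUGGGUGCuggugggagccgug

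The members with a gap between the control and TGF-β arrays, described further on, are shown for the same use, in the same notation. The list leaves out miR-6741-5p, already shown, and miR-6723-5p and miR-6890-5p are named only.
hsa-miR-6764-5p: uCCCAGGGucuggucagaguug
hsa-miR-6797-5p: aGGAGGGAaggggcugagaacagga
hsa-miR-6840-5p: aCCCCCGGgcaaagaccugcagau
hsa-miR-6734-5p: uUGAGGGGagaaugagguggaga
hsa-miR-6837-5p: aCCAGGGCcagcagggaaugu
hsa-miR-6771-5p: cUCGGGAGggcaugggccaggc
hsa-miR-6889-5p: uCGGGGAGucugggguccggaau

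The label mirtron was set against the sequences. A RefSeq mature sequence was found for 143 of the 168 members. Their median length was 22 bases, with a range of 19 to 25. The median G share was 50% in the members, 27.3% in the 1963 other miRNAs with a sequence (neither members nor 3p arms of the range), and 15% in the 147 3p arms with one. A run of GGG stood in 119 of the 143 members (83.2%), in 31.0% of these other miRNAs and in 3.40% of the 3p arms.

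The hairpins ended in AG at 132 of 142 member loci (93.0%), against 9.23% of the 1420 other RefSeq hairpins. GU, the start of an intron, stood within the first 4 bases of 29 member hairpins (20.4%), against 19.0% of the others, and 25 (17.6%) had both signs, against 2.46%. The hairpins of 3 members with high signals, and of 1 member without this end, show it. They are written 5′ to 3′ from RefSeq (GRCh38.p14), with the final 2 bases in capitals.
MIR6822: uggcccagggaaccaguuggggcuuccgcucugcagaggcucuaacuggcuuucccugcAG
MIR6777: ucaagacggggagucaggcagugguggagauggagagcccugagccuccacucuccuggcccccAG
MIR6743: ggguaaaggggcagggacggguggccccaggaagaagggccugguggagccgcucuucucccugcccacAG
MIR6724-2: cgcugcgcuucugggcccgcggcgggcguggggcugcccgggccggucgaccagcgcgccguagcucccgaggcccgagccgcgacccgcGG
The 5p arm began at base 6 of the hairpin at 125 loci, so a few bases stood before it. The median hairpin was 67 bases long against 81 for the other hairpins. By the spans in the annotation, 115 of the 142 loci lay within a protein-coding gene on the same strand, 2 within another gene on that strand only, and 25 in no other listed gene. The distance to exon ends was not measured here, so the word mirtron rests on the 3′ ends of the hairpins and on the host genes, and was not shown for the 5′ ends. Members without the AG end were miR-6721-5p, miR-6722-5p, miR-6724-5p, miR-6790-5p, miR-6792-5p, miR-6840-5p, miR-6852-5p, miR-6858-5p and miR-6869-5p, and these are not called mirtrons here.

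Among the hairpins of the members with the highest signals (GRCh38.p14), MIR6822 lay on chromosome 3 from 39138206 to 39138266, on the plus strand, in TTC21A. MIR6777 lay on chromosome 17 from 17813480 to 17813545, on the minus strand, in SREBF1, the gene of a transcription factor of lipid synthesis. MIR6826 lay on chromosome 3 from 129272146 to 129272243, on the plus strand, in COPG1, the gene of a coat protein of transport vesicles. MIR6768 lay on chromosome 16 from 2463967 to 2464038, on the plus strand, in TEDC2. MIR6743 lay on chromosome 11 from 209336 to 209406, on the plus strand, in no other listed gene.

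Detection was frequent among the members. A probe was called detected on an array when its signal was above the mean of the blank spots plus 2 SD, a limit of 19.5 to 22.8 intensity units. The control arrays detected 140, 144 and 142 of the 168 members, and the TGF-β arrays 144, 156 and 148. These shares of 83.3% to 92.9% lay above those of all non-member probes, 58.0% to 68.0%, and above those of the 3p arms, 70.5% to 80.7%, on every array. The second TGF-β array had the highest share in each of the 3 sets. On all 6 arrays 126 members (75%) were detected, against 48.2% of the non-member probes and 58.4% of the 3p arms.

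The other 42 members were split between 34 seen on 1 to 5 arrays and 8 seen on none. The 8 were miR-6739-5p, miR-6755-5p, miR-6783-5p, miR-6811-5p, miR-6823-5p, miR-6832-5p, miR-6841-5p and miR-6854-5p. For these no level was measurable at this signal, which does not show that they were absent. On every array of at least 1 group 143 members were detected, and those entered the test. Of these, 3 entered through the control arrays only and 14 through the TGF-β arrays only. Over all miRNA probes these counts were 65 and 110, and over the 3p arms 8 and 8. With a limit of 3 SD, 125 members entered.

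**Figure D1:**
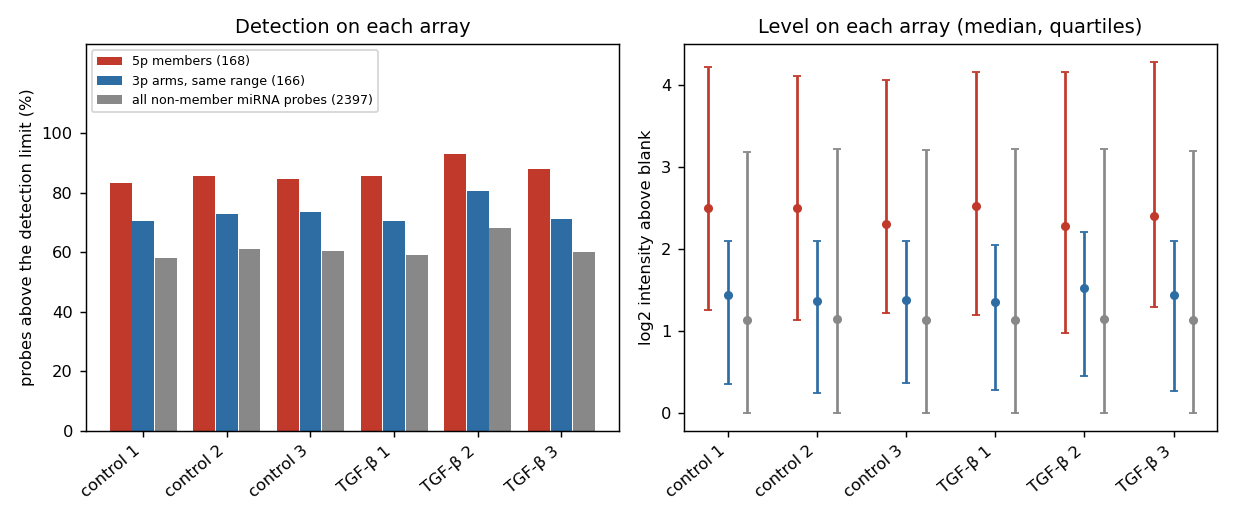
Left, the share of probes above the detection limit (percent, bars from 0) on each of the 6 arrays for the 168 members, the 166 3p arms and all 2397 non-member probes, which include the 3p arms. Right, the median (point) and quartiles (bars) of the log2 intensity above blank in the same sets. The members are the highest of the 3 sets in both panels on all 6 arrays.

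The members also stood higher in level than the other probes. The level of a probe was the log2 of its intensity minus the blank mean, set to at least 1 unit and quantile normalized, so that 0 is the floor. Signals depend on the probe as well as on the RNA, so the order of levels is not an order of RNA amounts. The median member had 2.51, 2.50 and 2.31 in the control group against 2.53, 2.28 and 2.41 in the TGF-β group. The median non-member probe had 1.13 to 1.15 and the median 3p arm 1.36 to 1.53. In unprocessed units the median member gave 23.4 to 27.2 per array, a few units over blank means of 18.2 to 21.3.

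The members filled the middle of the scale and not its top. On each array 33.9% to 35.7% of them were in the top 25% of all miRNA probes, and 7.74% to 8.98% in the top 10%. By mean level, 69 members were under 2, 52 from 2 to under 4, 32 from 4 to under 6, 14 from 6 to under 8, and 1 at 8 or more. That 1 was 0.595% of the members, while 4.63% of the non-member probes stood at 8 or more. Among probes detected on all 6 arrays the order of the medians turned, with 3.01 to 3.16 for the members and 3.31 to 3.33 for the non-member probes.

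The size of this gap depended on the processing. The median member exceeded the median of all miRNA probes by 1.17 on average over the arrays with the blank-spot background. With the local background of each spot, corrected by normexp with an offset of 50 units, the gap was 0.017. Of these 2 changes, tried apart after the data were seen, the local background with an offset of 0 gave 0.050 and the blank-spot background with 50 units added gave 0.080. With the authors' deposited values, which leave undetected probes empty, it was 0.15.

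miR-6822-5p had the highest signal of the members by a wide margin. Its intensity above blank was 4626, 4235 and 4731 units in the control group against 3970, 4194 and 4127 in the TGF-β group. The lowest of these 6 ranks was the percentile 99.45 of all miRNA probes on the array. The next member, miR-6777-5p, had 107, 124 and 156 units in the control group against 90.1, 151 and 113 in the TGF-β group. The remaining 6 of the 8 highest, miR-6743-5p, miR-6826-5p, miR-6768-5p, miR-6786-5p, miR-6727-5p and miR-6741-5p, had mean levels of 6.37 to 6.82.

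At the other end, the 2 members nearest above the detection limit by their mean signal were miR-6740-5p and miR-6751-5p, and the 2 nearest under it were miR-6815-5p and miR-6855-5p. miR-6740-5p was detected on 3 arrays, miR-6751-5p and miR-6855-5p on 2 and miR-6815-5p on 1. Their mean levels were 0.31 to 0.41, and none of these 4 was tested.

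**Figure D2:**
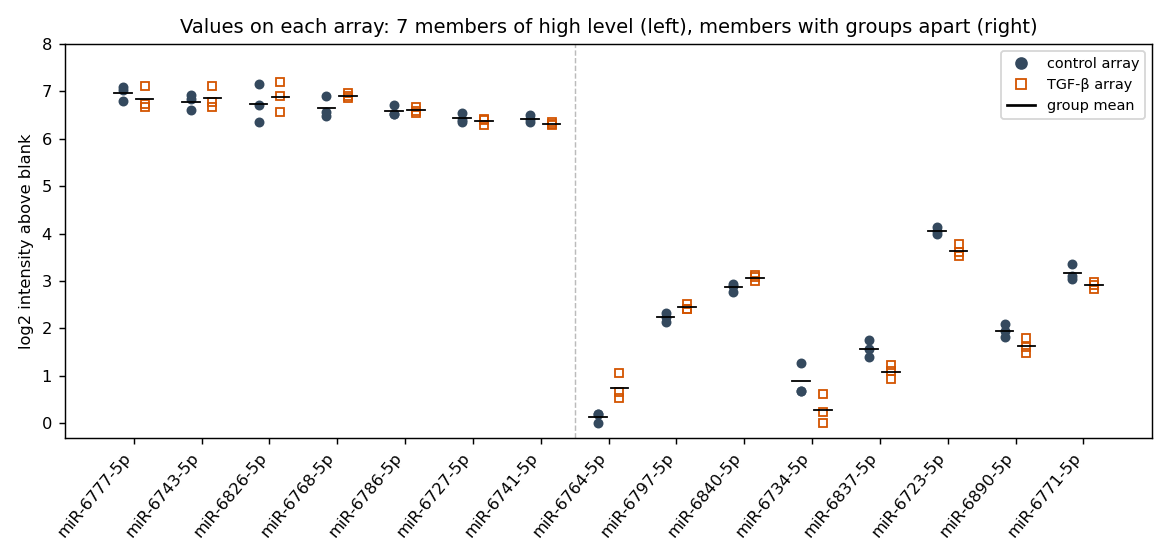
The log2 intensity above blank on each control array (filled circles) and TGF-β array (open squares), with group means (lines), for 7 members of high level and 8 members whose groups did not overlap. In the left set the groups overlap except for miR-6741-5p, and in the right set they do not. miR-6822-5p, at a mean of 12.06, is off the scale.

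Base composition went with detection and level among the members. Of the 32 members with a G and C share of 70% or more, 32 were detected on all 6 arrays, and their median level was 4.22. Of the 11 under 50%, 3 were, and the median was 0.42. Between these, 25 of 46 members with a share of 50% to under 60% and 50 of 54 with 60% to under 70% were detected on all 6 arrays. Across the 143 members with a sequence the level and the G and C share had a Pearson r of 0.57 and a Spearman rho of 0.66, and for the G share alone r was 0.36 and rho 0.44. These are descriptions across probes that share the same arrays, and probes are not replicates.

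Among probes of like G share the members and the other probes lay closer together in the upper classes. At a G share of 50% or more, 90.4% of 73 members and 89.4% of 161 non-member probes were detected on all 6 arrays. At 40% to under 50% the shares were 65.7% of 35 members and 70.1% of 211 non-member probes. At 30% to under 40% they were 63.0% of 27 and 47.6% of 445. By G and C share the members stayed higher in both upper classes, with 92.6% against 76.3% from 60% to under 70%, and 100% against 82.1% from 70%. Whether the composition set these signals was not tested.

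**Figure D3:**
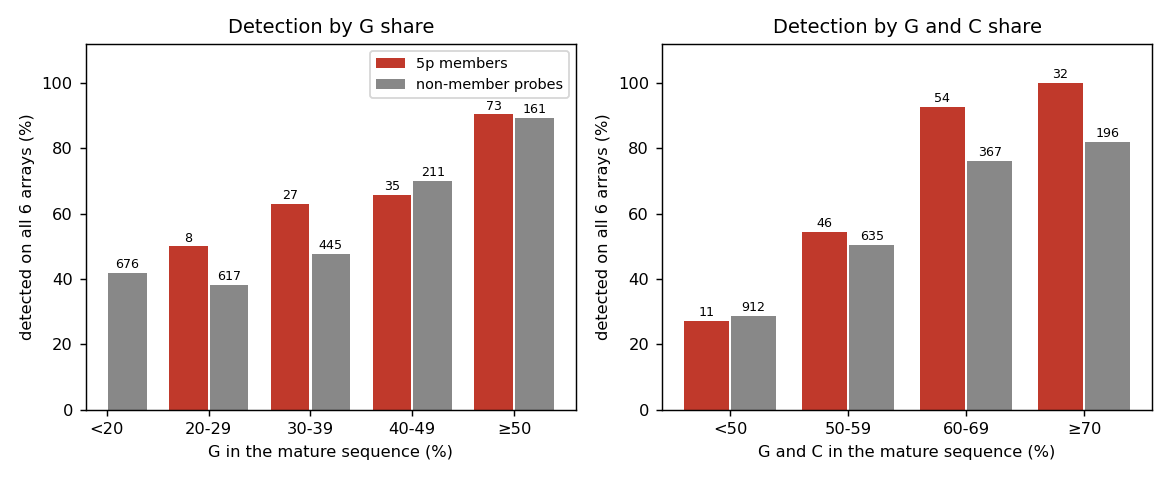
The share of probes detected on all 6 arrays (percent, bars from 0) by the G share (left) and the G and C share (right) of the mature sequence, for members and non-member probes, with the number of probes over each bar. Detection is highest in the class richest in G, or in G and C, for both sets, and at a G share of 50% or more the sets stand at 90.4% and 89.4%.

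Arrays gave the members in much the same order. Across the 126 members detected on all 6 arrays, Pearson r was 0.974 to 0.986 and Spearman rho 0.959 to 0.977 over the 15 pairs of arrays. Pairs within the control group gave r of 0.975 to 0.981, pairs within the TGF-β group 0.982 to 0.986, and pairs between the groups 0.974 to 0.986. The pairs between groups overlapped the range of those within them. For non-member probes r was 0.989 to 0.992 within groups and 0.985 to 0.990 between them. Without miR-6822-5p, which stood far from the others, r of the members was 0.968 to 0.983. The 3p arms had r of 0.933 to 0.975.

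The agreement was lower with the local background. The lowest r of the members was then 0.175 with an offset of 50 units and 0.260 with an offset of 0, while the blank-spot background with 50 units added gave 0.989. Without any background correction it was 0.988.

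The spread of a member between arrays of a group depended on its level and was close to that of other probes. The median within-group SD was 0.205 over the 143 members tested and 0.207 over the 1314 non-member probes tested. Members at a level under 1 had a median SD of 0.49 and members from 4 to under 5 had 0.11, against 0.42 and 0.14 for non-member probes. From a level of 6 the members had 0.15 and the others 0.10.

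The highest SD among the members tested, 1.02, was that of miR-6864-5p. It had 2.02, 0 and 1.81 in the control group against 1.12, 0.045 and 1.90 in the TGF-β group. It was low on the second array of each group. miR-6748-5p followed with an SD of 0.85 and levels of 2.37, 1.77 and 0.52 in the control group against 1.11, 0.29 and 1.80 in the TGF-β group. miR-6839-5p had 0.71, with 1.85, 0.84 and 0 in the control group against 1.30, 0.95 and 0.55 in the TGF-β group. In all 3 the groups overlapped.

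No member changed with TGF-β at an adjusted p under 0.05. limma called 0 of the 143 members tested, against 3.98% of all 1457 probes tested, of which 38 rose (2.61%) and 20 fell (1.37%). At an unadjusted p under 0.05, 4 members passed (2.80%), against 13.9% of all probes tested, and the methods' t-test, run on the same values, gave 5 unadjusted and 0 after adjustment. The groups did not overlap for 10 members (6.99%), 3 higher and 7 lower. Of all probes tested the groups did not overlap for 19.0%, with 8.85% higher and 10.2% lower. With the local background the order of the shares turned, with 12 members apart (8.39%) against 7.14% of all probes tested. At an unadjusted p under 0.05 by limma, 4 members passed there, against 2.33% of all probes tested. A member that entered the test through the arrays of 1 group only had to be high there, and among the 126 members detected on all 6 arrays 7 had groups apart, 2 higher and 5 lower, a share of 5.56% against 18.6% of all probes detected on all 6 arrays. The median log2 difference, TGF-β minus control, was -0.014 over the members tested and -0.013 over all probes tested, and the members ranged from -0.60 to 0.68. Over all 168 members, tested or not, the median difference of group means was -0.0020.

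How small a change could have been seen depended on the level. The 95% confidence interval of the log2 difference lay within 0.5 of 0 for 68 of the 143 members and within 1 for 120. At a level of 4 or more, 45 of 47 members had intervals within 0.5 of 0, 0 were called, and 1 had groups apart. At that level 44 of 464 non-member probes were called and 136 had groups apart. Under a level of 2, where 44 members lay, 0 intervals were within 0.5 of 0 and 22 were within 1. For these members a change of moderate size was not detectable with 3 arrays in each group.

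**Figure D4:**
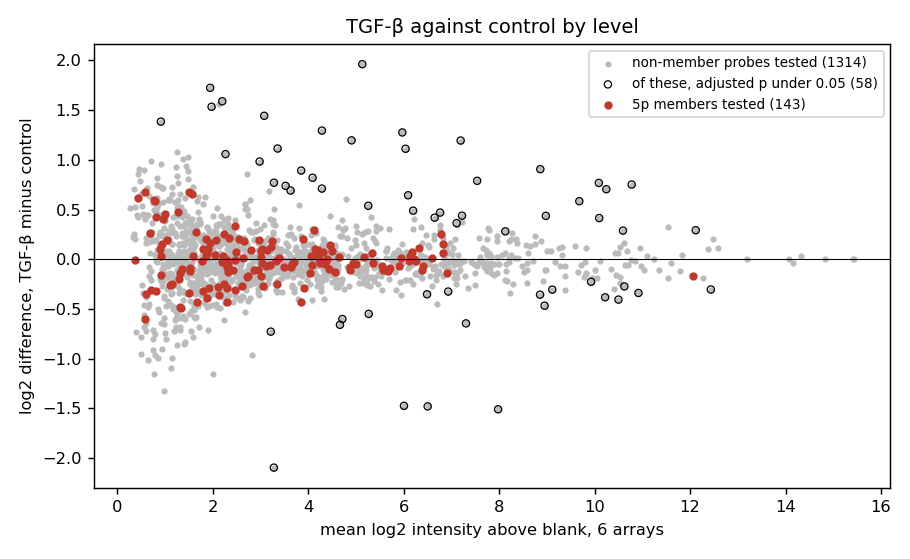
The log2 difference (TGF-β minus control) against the mean log2 intensity above blank for the 143 members tested (red) and the 1314 non-member probes tested (grey), with the 58 probes at an adjusted p under 0.05 circled. The members stay between -0.60 and 0.68, their spread narrows as the level rises, and none is circled.

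The lowest adjusted p of a member was that of miR-6723-5p. Its level was 3.99, 4.14 and 4.06 in the control group against 3.52, 3.62 and 3.77 in the TGF-β group. All 3 TGF-β values were under all 3 control values. The log2 difference was -0.43 (SE 0.12, 95% confidence interval -0.70 to -0.15), with an adjusted p of 0.109 by limma, and -0.16 with the local background. The exact permutation test, 2-sided, gave p = 0.1, the smallest that 3 against 3 arrays allow.

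The other 3 members at an unadjusted p under 0.05 were miR-6822-5p, miR-6768-5p and miR-6874-5p. miR-6822-5p had 12.25, 12.17 and 12.005 in the control group against 12.005, 11.91 and 12.005 in the TGF-β group, and the groups met at 12.005. The difference was -0.17 (SE 0.064) with an adjusted p of 0.246 by limma, and over the alternatives it ran from -0.59 to -0.014, with -0.29 for the local background and its offset of 50. Without the third control array it was -0.27, with an adjusted p of 0.0387, so that 1 array decided on which side of the threshold it lay. miR-6768-5p had 6.90, 6.49 and 6.57 against 6.96, 6.86 and 6.89, also overlapping. Its difference was 0.25 (SE 0.11) with an adjusted p of 0.322 by limma, 0.36 with an adjusted p of 0.0467 without the first control array, and -0.15 with the local background and its offset of 50. miR-6874-5p, named here after its value was seen, had 0.82, 1.00 and 1.67 against 1.94, 1.498 and 2.09, a difference of 0.68 (SE 0.29) with an adjusted p of 0.318 by limma.

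Higher on all 3 TGF-β arrays than on any control array were 3 members, and none passed the adjusted test. miR-6764-5p had 0.19, 0.20 and 0 in the control group against 1.06, 0.65 and 0.54 in the TGF-β group. With the local background the difference of 0.62 was 0.0077. It entered the test through the TGF-β arrays only, so the filter favoured its rise. It was the only member detected on all 3 arrays of 1 group and on none of the other, but it stood at the limit, at 1.44 to 1.97 intensity units above blank on the TGF-β arrays and 0.629 to 1.10 on the control arrays. Of all 2565 miRNA probes, 10 had this pattern for the TGF-β arrays and 1 for the control arrays. The adjusted p of miR-6764-5p was 0.533 by limma. Its hairpin lies in YY1, the gene of a zinc finger transcription factor, on chromosome 14 from 100277357 to 100277417.

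miR-6797-5p had 2.25, 2.14 and 2.33 in the control group against 2.52, 2.42 and 2.42 in the TGF-β group. The difference was 0.22 (SE 0.16), and -0.012 with the local background. Its hairpin lies in RPS19, a gene of the small ribosomal subunit, on chromosome 19 from 41869627 to 41869698. miR-6840-5p had 2.89, 2.77 and 2.95 against 3.13, 3.00 and 3.08, a difference of 0.20 (SE 0.14) that was 0.081 with the local background.

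Lower on all 3 TGF-β arrays than on any control array were 7 members, with miR-6723-5p among them. miR-6734-5p had 1.27, 0.68 and 0.69 in the control group against 0.62, 0.23 and 0 in the TGF-β group. The difference was -0.60 (SE 0.38), at a level near the floor, and -0.013 with the local background. It entered the test through the control arrays only, which favoured its fall, and the lowest difference among members detected on all 6 arrays was that of miR-6837-5p. miR-6837-5p had 1.58, 1.40 and 1.75 against 0.94, 1.22 and 1.11, a difference of -0.49 (SE 0.25) that was -0.0018 with the local background.

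miR-6890-5p had 1.94, 1.82 and 2.09 in the control group against 1.47, 1.80 and 1.61 in the TGF-β group, a difference of -0.32 that was 0.0061 with the local background. miR-6771-5p had 3.35, 3.05 and 3.12 against 2.98, 2.91 and 2.83, a difference of -0.27 that was -0.038 with the local background. miR-6741-5p had 6.36, 6.41 and 6.51 against 6.30, 6.35 and 6.31, a difference of -0.11 that was 0.043 with the deposited values. miR-6889-5p had 3.21 and 3.00 on the control arrays, with the third spot flagged by the scanner and left out of the fit, against 2.94, 2.95 and 2.93, a difference of -0.16. The adjusted p of these 7 members ran from 0.109 to 0.740 by limma.

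Shared seeds did not bring shared changes that the test could call. The 143 members with a sequence had 133 different seeds, and the seed held GGG in 93 of the 143 (65.0%), against 13.3% in the 1963 other miRNAs. Of the members, 19 shared a seed with another member, in 9 groups, and 41 shared one with a miRNA that is no member. The groups with more than 1 member detected on all 6 arrays are shown with their sequences, in the notation used above.
hsa-miR-6750-5p: cAGGGAACagcugggugagcugcu
hsa-miR-6822-5p: cAGGGAACcaguuggggcuu
hsa-miR-6795-5p: uGGGGGGAcaggaugagaggcugu
hsa-miR-6887-5p: uGGGGGGAcagauggagaggaca
hsa-miR-6737-5p: uUGGGGUGgucggcccuggag
hsa-miR-6812-5p: aUGGGGUGagauggggaggagcagc
hsa-miR-6819-5p: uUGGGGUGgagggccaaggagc

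Probes of like seed could also share signal by cross-hybridization, which was not tested. miR-6750-5p, with the seed of miR-6822-5p, had 4.22, 4.03 and 3.90 in the control group against 3.90, 3.80 and 3.59 in the TGF-β group. The difference was -0.29 (SE 0.14, adjusted p of 0.407 by limma), and the groups met at 3.90. miR-6795-5p had a difference of -0.13 and miR-6887-5p of -0.11. In the third group miR-6737-5p had 0.34, miR-6812-5p -0.071 and miR-6819-5p 0.15, so that the signs were mixed, and the adjusted p of these 5 ran from 0.576 to 0.905 by limma. With the local background and its offset of 50 the difference was -0.011 for miR-6750-5p, -0.038 for miR-6795-5p, 0.023 for miR-6887-5p, 0.020 for miR-6737-5p, -4.8e-05 for miR-6812-5p and -0.15 for miR-6819-5p.

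miR-6838-5p is shown because its seed is that of the miR-15 and miR-16 family, known for holding back the cell cycle. It was picked after its values were seen.
hsa-miR-6838-5p: aAGCAGCAguggcaagacuccu
It had 2.79, 2.83 and 2.62 in the control group against 2.61, 2.69 and 2.13 in the TGF-β group, with a difference of -0.27 (SE 0.19, adjusted p of 0.584 by limma). With the local background the difference was 0.0048. miR-16-5p, in the same fit, had 12.71, 12.52 and 12.52 against 12.30, 12.25 and 12.30, a difference of -0.30 (SE 0.058, adjusted p of 0.0117 by limma). That call was lost with the local background, where 0 of all 1457 probes tested were called. There miR-16-5p had -0.23 with an adjusted p of 0.992 by limma. Of the other members of the family with this seed, miR-15a-5p had -0.21, miR-195-5p -0.16, miR-15b-5p -0.11, miR-497-5p -0.074 and miR-424-5p 0.13, and none of these passed. With the local background they had, in the same order, -0.64, -0.48, 0.38, 0.046 and 0.037. The interval of miR-6838-5p, -0.68 to 0.14, included 0.

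The 2 arms of a hairpin often differed in signal. Their mean levels were 1 or more apart for 97 of 165 hairpins and closer for 68. On all 6 arrays both arms were detected for 83 of them, the 5p arm alone for 40, the 3p arm alone for 14 and neither for 28. The 5p signal was the higher on all 6 arrays for 91 hairpins and the 3p signal for 24. For the other 50 neither arm was the higher on all 6, and ties at the floor or a missing spot count here. Across the 165 hairpins the levels of the arms had a Pearson r of 0.24 and a Spearman rho of 0.33.

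miR-6822 was an example of the first kind, with a mean level of 12.06 for the 5p arm and 0.38 for the 3p arm, which was detected on 2 arrays. miR-6741 had 6.37 and 1.13. miR-6765 was the reverse, with 4.94 for the 5p arm and 10.64 for the 3p arm, and so was miR-6840 with 2.97 and 6.34. miR-6766 had a 5p arm at 0.96, detected on 5 arrays, and a 3p arm at 5.21. The arms have different probes, so the gap between them is one of signal.

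The log2 differences of the arms showed almost no correlation. Both were tested for 102 hairpins, and r of their log2 differences was 0.042. Of the 113 3p arms tested, 0 passed an adjusted p under 0.05, 5 an unadjusted one, and 13 had groups apart (11.5%).

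**Figure D5:**
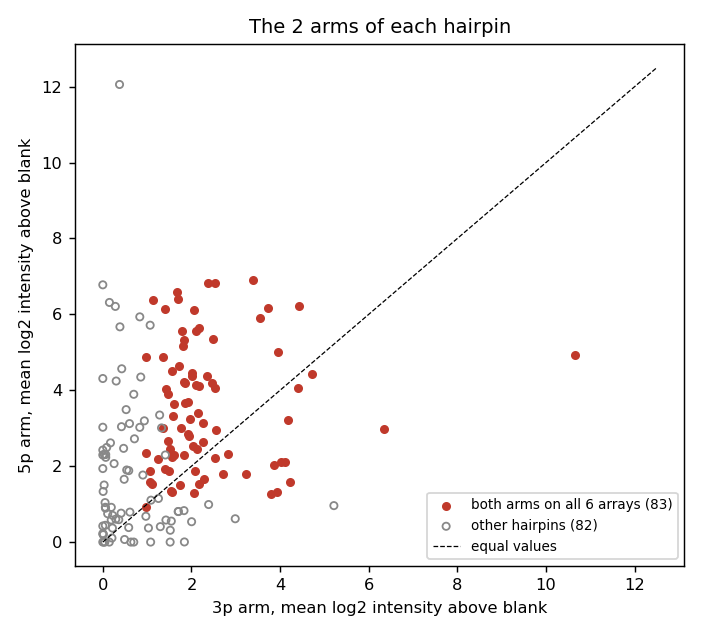
The mean log2 intensity above blank of the 5p arm against that of the 3p arm for 165 hairpins, with the 83 hairpins whose arms were both detected on all 6 arrays in red and a dashed line at equal values. Most points lie above the line, miR-6822 is at the upper left, and miR-6765 is at the far right below the line.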

How the data were processed

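The authors deposited, for each of the 6 arrays, scanner output with the median intensity of 3200 spots and of the local background on a linear scale, not normalized. They also deposited a table of processed intensities, which was rebuilt from the scanner files to within rounding (largest difference 0.500 units, the same values missing): the mean of the 320 blank spots, without 5% at each end, was subtracted and each array's detected miRNAs scaled to a median of 25. The statistics section of the paper lists a 2-tailed t-test, analysis of variance and a rank test without saying which applied to the arrays. The arrays' normalization is not given in the sources used here.

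Here the same blank mean was subtracted, a floor of 1 unit set, log2 taken and the miRNA probes quantile normalized. Flagged spots (3 of the miRNA spots, 1 of them a member) were left missing. The log2 values were compared by lmFit and by eBayes with its trend option (limma 3.58.1, R 4.3.3) over the 1457 probes above the blank mean plus 2 SD on every array of at least 1 group, with Benjamini-Hochberg adjustment over them all. A single member also had an exact permutation test. Sequences and positions were from RefSeq, and figures from matplotlib 3.10.9. The steps were tested on simulated data. The number of arrays limits the precision.

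Named members were those past the threshold or, failing these, with the largest changes among members with groups apart (up to 5 in a direction). Also named were the 8 of highest level, the 3 tested members of highest SD and those detected in 1 group only. Those sharing a seed and the 4 nearest the limit, 2 on each side, were named too. Members and lists were chosen with earlier results of these data known. Replicate numbers are also slide positions. Arrays with the same number deviated from their group means with correlations of 0.129, 0.111 and -0.027, so the numbers were not taken as pairs. Alternatives were other backgrounds, scalings, floors, filters and fits, and each array left out.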

Additional observations from a re-analysis of the deposited data

How the results depend on the processing

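The counts of members called, detected and apart were the same or within 1.5 times of those reported under every setting that kept all arrays. The call count was 0 of the members tested throughout, with 2 to 7 members at an unadjusted p under 0.05. With the local background 0 of all 1457 probes were called and 34 passed unadjusted. The groups were then apart for 12 members (8.39%) and for 104 of all probes tested (7.14%). The members no longer had the lower share there. With the replicate block 0 members were called, and 7 passed unadjusted; it changed no call of a member. Leaving out 1 array gave 0 to 1 members called (miR-6768-5p without the first and miR-6822-5p without the third control array), 17 to 31 with groups apart (11.6% to 21.7%, against 26.5% to 31.4% of all probes tested), and 143 to 147 detected. The number of all probes called ran from 17 with the methods' t-test to 66 with the robust fit on the same probes, 0 with the local background apart, and was 19 without a filter.

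The deposited values raised the median log2 difference of all probes tested from -0.013 to 0.11, and that of the members to 0.11 (0.12 as a ratio of linear means). The level gap was 0.017 with the local background (normexp, offset 50), 0.15 with the deposited values, 1.28 against the non-member probes, and -0.26 among probes detected on all arrays. The lowest r was 0.175 with the local background and 0.988 without correction. Chosen after seeing the data, an offset of 0 for the local background gave a gap of 0.050 and an r of 0.260, and 50 units added to the blank-spot values gave 0.080 and 0.989. The cause was not tested. Of the 639 recomputed log2 differences of named members, 48 turned sign, and 2 passed the threshold (the 2 calls above). With the local background these were miR-6797-5p -0.012, miR-6890-5p 0.0061, miR-6743-5p -0.025, miR-6826-5p -0.32, miR-6768-5p -0.15, miR-6786-5p -0.43, miR-6727-5p 0.29, miR-6887-5p 0.023 and miR-6819-5p -0.15. With the offset of 0 they were, in the same order, -0.031, 0.018, -0.090, -0.52, -0.16, -0.77, 0.66, 0.065 and -0.32. With the deposited values they were miR-6727-5p 0.078, miR-6741-5p 0.043, miR-6839-5p -0.23 and miR-6812-5p 0.0080, and as a ratio of linear means miR-6777-5p 0.037, miR-6727-5p 0.094, miR-6741-5p 0.055, miR-6839-5p -0.28 and miR-6812-5p 0.013. miR-6839-5p was -0.0043 without background correction and -0.0014 with a pseudocount of 5 and -0.0022 with one of 50, miR-6786-5p -0.029 with 75th percentile scaling and -0.012 without normalization, and miR-6864-5p 0.12 with a floor of 0.25. With 1 array left out the ranges that crossed 0 were -0.069 to 0.16 for miR-6743-5p, -0.047 to 0.35 for miR-6826-5p, -0.025 to 0.083 for miR-6786-5p, -0.90 to 0.23 for miR-6864-5p, -0.41 to 0.53 for miR-6839-5p, -0.38 to 0.080 for miR-6795-5p, -0.28 to 0.035 for miR-6887-5p and -0.18 to 0.040 for miR-6812-5p. Signals near the blank spots limit the fainter members.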

Other observations

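Close to the members by name or by origin were 2 further sets. The number range also held 4 probes with a letter after the number, which the rule leaves out. miR-6780b-5p had a level of 5.98 to 6.13 on the 6 arrays, miR-6769a-5p 4.01 to 4.37, miR-6769b-5p 3.80 to 4.66 and miR-6780a-5p 1.22 to 2.33. The log2 difference of miR-6780a-5p was 0.58 (SE 0.27, adjusted p of 0.367 by limma), and those of the other 3 lay between -0.056 and 0.25. Of the probes of the range that name no arm, miR-6860 had 5.74 to 6.18, miR-6745 was detected on 2 arrays, miR-6863 on 4 and miR-6844 on 0.

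Of 12 intron-derived miRNAs known from earlier catalogues, 11 were tested as 5p arms and 0 had an adjusted p under 0.05. miR-1233-5p had the highest level, 7.58 to 8.02, and miR-1237-5p followed with 6.62 to 7.11. Their largest log2 differences were -0.42 (SE 0.38) for miR-1226-5p and -0.25 (SE 0.15) for miR-877-5p on one side, and 0.11 (SE 0.12) for miR-1237-5p and 0.092 (SE 0.29) for miR-1225-5p on the other. The groups of miR-877-5p did not overlap, with 3.24 to 3.27 on the control arrays and 2.80 to 3.22 on the TGF-β arrays, at an adjusted p of 0.520 by limma.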
